A study of Mus musculus with 6 samples.

Results

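The arachidonate lipoxygenases are iron enzymes that add molecular oxygen to arachidonic acid and related polyunsaturated fatty acids. The genes described here are 7, chosen by symbol from the 52636 gene IDs of the table: Alox5, Alox12, Alox15, Alox12b, Aloxe3 and Alox12e, which encode lipoxygenases, and Alox5ap, which encodes FLAP, the membrane protein that presents arachidonic acid to 5-lipoxygenase. All 7 symbols were found, each with 1 ID. With a level of at least 1 CPM (the deposited unit, a gene's reads scaled to a fixed total that is the same for every library) in at least 3 libraries taken as expression, 4 of the 7 were expressed: Alox12e, Aloxe3, Alox12 and Alox12b.

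Lipoxygenases compete with the cyclooxygenases, the targets of ibuprofen, for arachidonic acid freed from membranes by phospholipase A2. In leukocytes 5-lipoxygenase and FLAP start the synthesis of leukotrienes, and in platelets 12-lipoxygenase makes 12-HETE. In stratified epithelium the products of Alox12b and Aloxe3 act one after the other on linoleate esterified in ceramides, a step in building the water barrier of the skin, and Alox12e encodes an epidermal 12-lipoxygenase.

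The cells came from the thoracic oesophagus of Krt5-CreERT2:R26SmoM2/EYFP mice, called K5:Smo, 12 weeks after tamoxifen. Every library, the untreated ones included, therefore carries SmoM2, an active form of the Hedgehog transducer Smoothened, switched on in keratin 5 cells and their descendants, and no library without SmoM2 was analysed here. The 3 untreated libraries were set against 3 libraries from mice given ibuprofen by drinking bottle (0.6 g/l). Cells had been sorted for high EpCAM, an epithelial surface protein. The labels name neither the age of the mice nor the animal behind each library. The p-values therefore measure only the spread between these libraries, which may be technical.

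Between 6361297 and 8764370 reads per library were estimated from the steps of the CPM values, so that 1 read was worth 0.114 to 0.157 CPM. The sorted cells carried the markers of squamous epithelium, with Krt5 at 2690 to 3939 CPM and Trp63 at 1175 to 1493 CPM. The 7 squamous markers summed to 9861 to 11004 CPM untreated and 8022 to 9291 CPM with ibuprofen, and the part of this difference in the values below was not tested. Means without and with ibuprofen were 3616 and 2881 CPM for Krt5, 2133 and 1448 for Krt14, and 2315 and 1909 for Krt13. They were 166 and 153 CPM for Krt4, 1373 and 1323 for Trp63, 261 and 259 for Epcam, and 602 and 634 for Cdh1. Groups did not overlap in 1 of the 7, Krt14, beside 22.9% of all tested genes. Library names carry 1 code for all untreated and another for all ibuprofen libraries, and any batch so marked cannot be told apart from the treatment.

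To show how far the family members resemble each other, and so whether reads could be shared, 60 coding bases around the first 2 histidines that bind the iron are given for the 6 lipoxygenases, from the GENCODE M21 transcripts (GRCm38), sense strand, with those histidine codons in capitals.
Alox12e: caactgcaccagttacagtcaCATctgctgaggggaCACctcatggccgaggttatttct
Alox15: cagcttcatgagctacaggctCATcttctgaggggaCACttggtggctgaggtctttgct
Alox12: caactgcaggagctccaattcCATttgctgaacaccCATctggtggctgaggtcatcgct
Alox5: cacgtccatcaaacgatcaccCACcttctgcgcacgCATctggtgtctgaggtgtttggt
Aloxe3: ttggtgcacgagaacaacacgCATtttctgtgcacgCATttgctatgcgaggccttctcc
Alox12b: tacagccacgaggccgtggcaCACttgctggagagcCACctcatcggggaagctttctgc
The windows were placed by the histidine motif, so the codons line up by construction. In this window Alox15 and Alox12e shared 45 of 60 bases, the most of the 15 pairs, and Alox5 and Alox12b, like Alox15 and Alox12b, shared 28.

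Over the whole coding sequence Alox12e was 69.3% identical to Alox15 and 67.4% to Alox12, while Alox12b was 63% identical to Aloxe3. The longest identical run in any of these alignments was 29 bases, between Alox12b and Aloxe3. No stretch of 50 bases in the annotated transcripts of Alox5, Alox15, Alox12b or Alox12e occurred in a transcript of another gene, on either strand. In Alox12 15 of 4036 and in Aloxe3 25 of 6527 such stretches did, none of them in another lipoxygenase gene. Alox5ap shared 93 of 1367 with Gm19719, an antisense gene that overlaps it and had at most 0.4 CPM, and it also overlaps n-R5s180, at most 0.15 CPM. Whether the authors' counting used strand is not given in the sources used here, so reads of these overlapping genes cannot be told apart.

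The 5 lipoxygenase genes listed other than Alox5 lie on chromosome 11, in 2 clusters. Aloxe3 (ENSMUSG00000020892, plus strand, 69125896 to 69149115, GRCm38) stands beside Alox12b (ENSMUSG00000032807, plus strand, 69156989 to 69169792). Alox12 (ENSMUSG00000000320, 70241457 to 70255353), Alox12e (ENSMUSG00000018907, 70315610 to 70322628) and Alox15 (ENSMUSG00000018924, 70344152 to 70352031) follow each other on the minus strand. Alox5 (ENSMUSG00000025701) is on chromosome 6, minus strand, 116410077 to 116461178, and Alox5ap (ENSMUSG00000060063) on chromosome 5, plus strand, 149264767 to 149288153. Expressed genes thus had neighbours under the threshold. Alox15, next to Alox12e, and Alox8, which encodes an 8-lipoxygenase and follows Alox12b, stayed under 1 CPM in all libraries, Alox8 with 1 estimated read in all.

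Set per kilobase of annotated exons, so that genes of different length can be compared, Alox12e had the highest mean level, 4.55 ± 2.19 CPM per kb (SD over the 6 libraries). Aloxe3 followed with 1.75 ± 0.596, Alox12 with 0.85 ± 0.201 and Alox12b with 0.771 ± 0.312 CPM per kb. Alox12e was above Aloxe3 in 5 of 6 libraries and their ranges overlapped, as did those of Alox12 and Alox12b. Aloxe3 was above Alox12 in all 6, with no overlap. Over the length of the transcript with the longest coding sequence in place of all exons, Alox12e was above Aloxe3 in 3 of 6 libraries. There Aloxe3 counts 3019 bases in place of 6397, which include retained introns. Mean levels over that length were 5.31 CPM per kb for Alox12e and 3.72 for Aloxe3. None of the 4 was abundant: among 16651 tested genes with a length, Alox12e exceeded 45.9% in CPM per kb, Aloxe3 22.7%, Alox12 11.2% and Alox12b 9.87%.

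**Figure D1:**
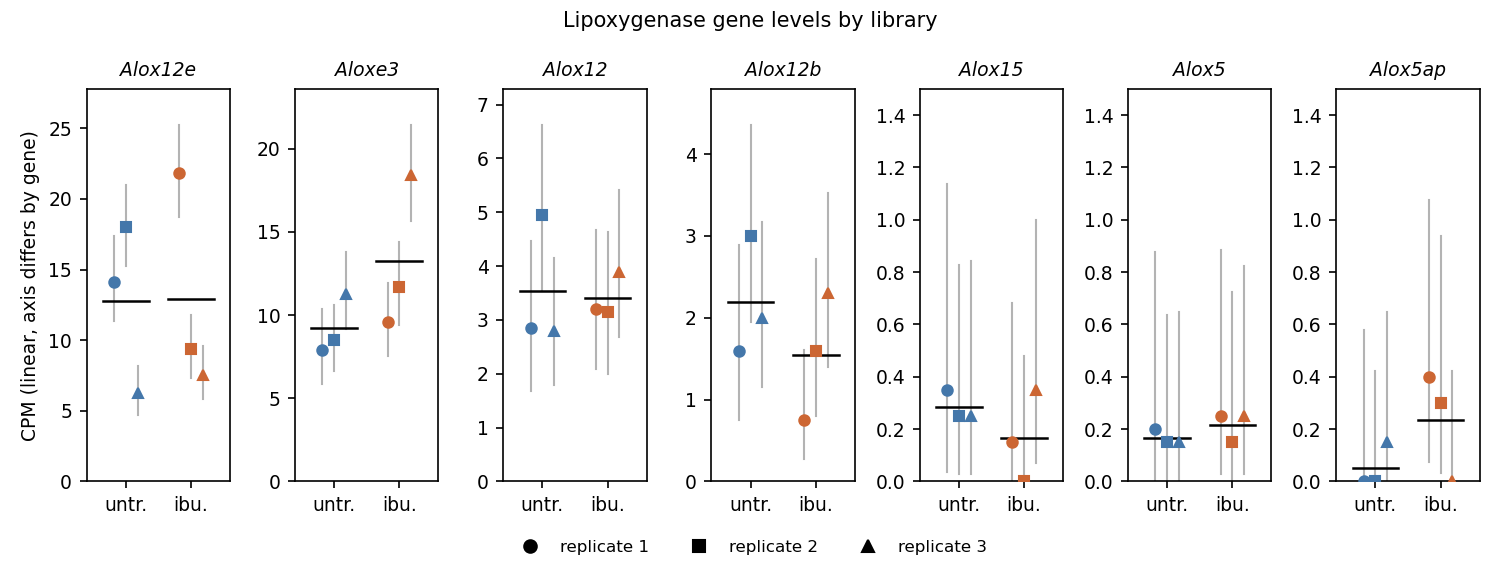
CPM of the 7 genes (linear y axis from 0, its range differing by gene) in the 3 untreated (blue) and 3 ibuprofen (orange) libraries, where symbols give the replicate, black lines the group mean and grey bars the exact 95% Poisson interval of the estimated reads, which covers counting error only. The groups overlap for every gene, and Alox12e spans 6.3 to 21.8 CPM over the 6 libraries.

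None of the 4 expressed lipoxygenase genes passed the test between ibuprofen and untreated libraries. Of the 4 tested members limma called 0 (p under 0.05 after Benjamini-Hochberg adjustment over all tested genes), against 0.521% of all 16684 tested genes, 0.3% higher and 0.222% lower with ibuprofen. That share rests on 87 calls, which became 4, 5 and 456 without untreated replicates 1, 2 and 3, 23 and 44 without ibuprofen replicates 1 and 3, and 2462 with library weights, while the members stayed at 0 called. In all 50 genes were higher and 37 lower, or 33 and 41 after TMM scaling. At an unadjusted limma p under 0.05 there were also 0 of 4 members, against 17.9% of tested genes (11.8% higher, 6.17% lower). Groups overlapped in all 4, while 22.9% of tested genes had groups that did not. The members' log2 fold changes had a median of -0.01, against 0.04 over all tested genes, 56.3% of which were above 0, as was 1 of the 4 members.

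Aloxe3, which encodes the hydroperoxide isomerase eLOX3 of the skin barrier pathway, had 7.89, 8.49 and 11.3 CPM in untreated replicates 1, 2 and 3 and 9.59, 11.7 and 18.4 CPM in ibuprofen replicates 1, 2 and 3. Its highest value, in the last of these, stood above the other 5, and the groups overlapped in the rest. The means were 9.23 ± 1.81 and 13.2 ± 4.59 CPM (SD, n = 3), a log2 fold change of 0.44 ± 0.23 (SE, limma adjusted p = 0.335) with a 95% interval of -0.06 to 0.95. Without ibuprofen replicate 3 the log2 fold change was 0.20. A difference of up to 0.95 log2 units is thus within the interval, and a fall of more than 0.06 is not.

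Alox12b encodes the 12R-lipoxygenase that makes the hydroperoxides used by eLOX3. It had 1.6, 3 and 2 CPM in untreated replicates 1, 2 and 3 and 0.75, 1.6 and 2.3 CPM in ibuprofen replicates 1, 2 and 3. Lowest was ibuprofen replicate 1 and the highest untreated replicate 2, at 6 and 26 estimated reads, and the groups overlapped. With means of 2.2 ± 0.721 and 1.55 ± 0.775 CPM (SD, n = 3) the log2 fold change was -0.35 ± 0.27 (SE, limma adjusted p = 0.513), with a 95% interval of -0.96 to 0.25. Leaving out single libraries gave -0.56 (ibuprofen replicate 3) to -0.10 (ibuprofen replicate 1), and library weights gave -0.68 (limma adjusted p = 0.0587).

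Alox12e showed the widest spread within groups of the 4 tested genes, and little difference between group means. It had 14.1, 18 and 6.3 CPM in untreated replicates 1, 2 and 3, and 21.8, 9.34 and 7.54 CPM in ibuprofen replicates 1, 2 and 3. Each group thus held a library at about 6 to 8 CPM and another at about 18 to 22 CPM, and the 95% Poisson intervals of lowest and highest did not meet in either group (4.72 to 8.21 against 15.3 to 21 CPM untreated, 5.82 to 9.58 against 18.7 to 25.3 CPM with ibuprofen). The means were 12.8 ± 5.96 and 12.9 ± 7.78 CPM (SD, n = 3), and the log2 fold change -0.02 ± 0.39 (SE, limma adjusted p = 0.984). Its 95% interval, -0.87 to 0.83, leaves room for a change of that size in either direction, and its sign turned when 4 of the 6 libraries were left out singly, with values from -0.45 to 0.27. Within each group the summed fibroblast marker list was ordered like Alox12e: it came to 51, 80 and 39.9 CPM in untreated replicates 1, 2 and 3 and to 112, 96.4 and 62.1 CPM with ibuprofen. With ibuprofen that order rests on replicate 1, where Col1a1 and Col1a2 had 29 and 15.7 CPM, since Dcn, the most abundant of the list, had 61.6, 88.1 and 54.3 CPM. The list's part in the values of Alox12e was not tested.

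The pooled SD within groups on the log2(CPM + 1) scale was 0.737 for Alox12e, above that of 99.2% of the 4634 tested genes whose mean CPM lay within 2-fold of its own, whose median was 0.201. By the same measure Aloxe3, at 0.361, exceeded 86.6% of 4576 genes of like mean, Alox12b, at 0.396, 80.1% of 3847, and Alox12, at 0.277, 51.9% of 3938. Alox12e and Aloxe3 were not high in the same libraries: ibuprofen replicate 1 had the highest Alox12e and the third lowest Aloxe3, while ibuprofen replicate 3 had the highest Aloxe3 and the second lowest Alox12e. Pearson's r between them on the log2(CPM + 1) scale was -0.68 over the 6 libraries, which share these libraries' depth and composition.

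Alox12, which encodes the platelet-type 12-lipoxygenase, had the smallest pooled SD of the 4 on the log2(CPM + 1) scale. Among untreated libraries alone Aloxe3 was steadier, its highest CPM 1.43 times its lowest, against 1.77 times for Alox12. Alox12 had 2.85, 4.95 and 2.8 CPM in untreated replicates 1, 2 and 3 and 3.2, 3.15 and 3.9 CPM in ibuprofen replicates 1, 2 and 3. Untreated replicate 2 was highest, and the other 5 libraries lay close together at 18 to 34 estimated reads. The means were 3.53 ± 1.23 and 3.41 ± 0.419 CPM (SD, n = 3), with a log2 fold change of -0.01 ± 0.23 (SE, limma adjusted p = 0.986) and a 95% interval of -0.51 to 0.49. Without untreated replicate 2 the fold change was 0.20.

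**Figure D2:**
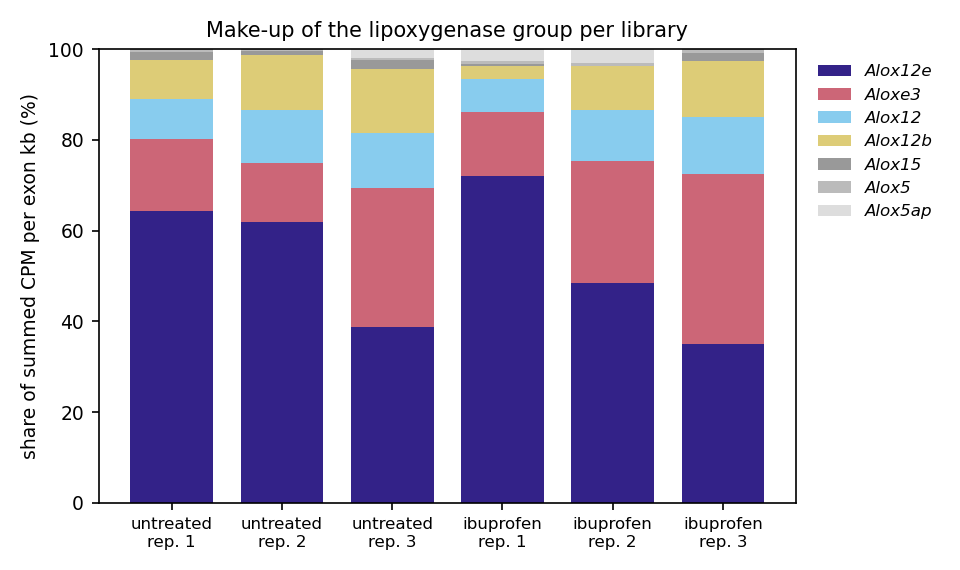
Share of each gene in the summed CPM per exon kilobase of the 7 genes (y axis, in percent) in each library (x axis). Alox12e ranges from 34.9% in ibuprofen replicate 3 to 72.1% in ibuprofen replicate 1, and the 3 low genes together take the thin grey bands at the top.

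Within the summed CPM per kilobase of all 7 genes, Alox12e took 55% ± 14.1 untreated and 51.8% ± 18.8 with ibuprofen (SD, n = 3), and Aloxe3 19.8% ± 9.55 and 26.1% ± 11.8. Alox12 took 10.9% ± 1.67 and 10.4% ± 2.71, and Alox12b 11.6% ± 2.95 and 8.3% ± 4.89. In shares of plain CPM, not set per length, Alox12e took 43.8% ± 14.2 untreated and 39.7% ± 19 with ibuprofen. Aloxe3 took 34.3% ± 13.2 and 42.4% ± 14.9. Alox12e thus had the larger mean share on both scales untreated, and with ibuprofen only per kilobase. On both scales the mean shares differed between groups by less than the shares of Alox12e and Aloxe3 did within a group. The summed CPM was 28.3 ± 6.04 untreated and 31.7 ± 5.05 with ibuprofen.

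Ratios between the 4 expressed genes were compared in 6 pairs, chosen after their values were seen. Only the ratio of Alox12b to Aloxe3 had groups that did not overlap, among these 6. It was 0.203, 0.353 and 0.177 in untreated replicates 1, 2 and 3, and 0.0782, 0.137 and 0.125 in ibuprofen replicates 1, 2 and 3. Every ibuprofen library lay below every untreated one. On the log2 scale, with 1 added to each CPM, the ratio was -1.69 ± 0.401 untreated and -2.48 ± 0.168 with ibuprofen (SD, n = 3), a difference of -0.79 (exact two-sided permutation p = 0.1, the smallest possible for 3 against 3, and 0.6 adjusted over the 6 pairs). The ratio rests on 6 to 26 reads of Alox12b per library. This 1 of 6 pairs stands beside 22.9% of single tested genes whose groups did not overlap. No share over other gene pairs was computed. The other 5 pairs had exact permutation p-values of 0.2 to 1.

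**Figure D3:**
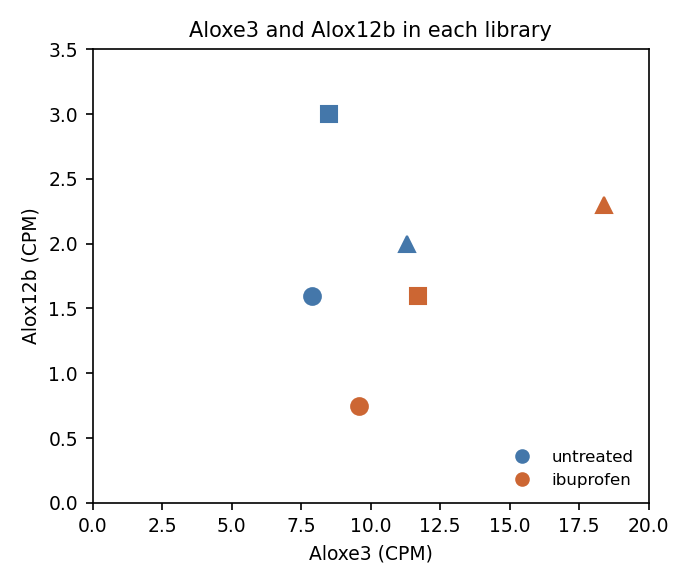
CPM of Aloxe3 (x axis) and Alox12b (y axis), both linear from 0, with 1 point per library (circle, square and triangle for replicates 1, 2 and 3). Each untreated library (blue) lies on a steeper line from the origin than each ibuprofen library (orange), with ratios of 0.177 to 0.353 against 0.0782 to 0.137, while the groups overlap on either axis alone.

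The leukotriene genes were near the limit of detection. Alox5, the 5-lipoxygenase gene, had 0.2, 0.15 and 0.15 CPM in untreated replicates 1, 2 and 3 and 0.25, 0.15 and 0.25 CPM in ibuprofen replicates 1, 2 and 3, or 1 to 2 estimated reads per library. Alox5ap was listed at 0, 0 and 0.15 CPM in the untreated and at 0.4, 0.3 and 0 CPM in the ibuprofen libraries, with 0 to 3 reads per library and 6 reads in all. Neither gene passed the expression filter, and with no filter limma called neither. At this depth a value of 0 does not show absence, and the floor of 3 reads was 0.342 to 0.472 CPM by library. For the Alox5ap zeros, exact 95% Poisson upper limits were 0.58 and 0.422 CPM in untreated replicates 1 and 2. That of ibuprofen replicate 3 was 0.421 CPM. Over the summed reads of each group, 95% Poisson intervals were 0.0261 to 0.37 CPM untreated and 0.0659 to 0.474 CPM with ibuprofen for Alox5, and 0.00107 to 0.235 and 0.0659 to 0.474 CPM for Alox5ap.

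Alox15, which encodes the mouse 12/15-lipoxygenase of macrophages and eosinophils, had 0.35, 0.25 and 0.25 CPM in untreated replicates 1, 2 and 3 and 0.15, 0 and 0.35 CPM in ibuprofen replicates 1, 2 and 3. That is 0 to 3 reads per library and 10 in all, with overlapping groups. It did not pass the expression filter either, and was not called with no filter. In sorted cells pooled as RNA, few cells with much of a transcript and many cells with little cannot be told apart for any of these genes.

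Most defining markers of the leukocytes that carry the leukotriene enzymes were at 0 or low. Of 7 mast cell markers 5, Cpa3, Fcer1a, Ms4a2, Tpsb2 and Mcpt4, were at 0 in all libraries, and of 7 macrophage markers 3, Adgre1, C1qa and C1qb, were. All 6 neutrophil and all 5 eosinophil markers stayed under 1 CPM in every library. The macrophage list summed to 8.74 to 12 CPM untreated and 12.2 to 16.9 CPM with ibuprofen, nearly all from Cd68 and Csf1r. Set beside Alox12, the platelet list summed to 10.6 to 15.1 CPM untreated and 9.99 to 15.8 CPM with ibuprofen. Nearly all of it came from Itga2b, at 5.65 to 9.59 CPM, and Gp1bb, at 3.95 to 8.0 CPM, with Pf4 at 0 throughout. The mast cell list, nearly all Kit, summed to 3.65 to 4.45 CPM untreated and 4.85 to 16.9 CPM with ibuprofen, where replicate 3 was highest. Of 4 pan-leukocyte markers Cd52 had 4.2 to 6.84 CPM and Ptprc at most 0.25 CPM. The other 2, Coro1a and Laptm5, were higher in every ibuprofen than in every untreated library. Coro1a was at 0.65 to 0.949 against 0.15 to 0.35 CPM, and Laptm5 at 0.4 to 1.05 against 0.15 to 0.2 CPM. Neither passed the expression filter, so neither was tested, and 1 read was worth 0.114 to 0.157 CPM. Among all tested genes 22.9% had groups that did not overlap. The list as a whole summed to 6.45 to 7.09 CPM untreated and 5.25 to 8.99 CPM with ibuprofen. The 6 dendritic and Langerhans cell markers, with Cd207 at 0 throughout, summed to 1 to 1.5 CPM untreated and to 1.6 to 3 CPM with ibuprofen. The part of these cells in the values of Alox5, Alox5ap, Alox12 and Alox15 was not tested.

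Around the lipoxygenases, genes of the eicosanoid pathway were expressed in part. They include genes that release arachidonic acid or act on lipoxygenase products, exporters, receptors and partners of 5-lipoxygenase. Of the 40 such genes listed in the data, 20 were tested, and limma called 0 higher and 0 lower, with 3 higher and 2 lower at an unadjusted p under 0.05. These 5 of 20 stand beside 17.9% of all tested genes. Their median log2 fold change was 0.03, and groups did not overlap in 6 of 20, beside 22.9% of all tested genes. Pla2g4a, the cytosolic phospholipase A2 that frees arachidonic acid, had 51.2 ± 9.55 CPM untreated and 53.7 ± 8.8 CPM with ibuprofen (SD, n = 3). Pla2g4f, of the same enzyme family and picked after values were seen, had 27.8 ± 3.03 and 19.1 ± 6.09 CPM. Its groups did not overlap, and its log2 fold change was -0.56 ± 0.21 (SE, limma adjusted p = 0.214). Log2 fold changes were -0.05 for Pla2g4b and -0.18 for Pla2g4e, and 0.07 for Pla2g4a and 0.28 for Pla2g6. Genes of the supply side were thus expressed, and Lta4h, which makes leukotriene B4, had 47.5 ± 6.32 and 45.2 ± 5.02 CPM. Ltc4s, which makes leukotriene C4, reached at most 0.949 CPM in any library and did not pass the filter, while Mgst2, which can also make it, had 40.6 ± 5.18 and 45.6 ± 2.41 CPM. Below the filter was also the leukotriene receptor gene Cysltr1, at 0 throughout. The leukotriene B4 receptor genes Ltb4r1 and Ltb4r2, picked for their role after values were seen, as were Cysltr1 and Mgst2, had means of 18.9 ± 3.86 and 16 ± 2.75 CPM without and 22.1 ± 4.24 and 14.4 ± 1.72 CPM with ibuprofen. Gpx4, which reduces lipid hydroperoxides, had 26.9 ± 7.1 and 26.8 ± 3.31 CPM.

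The 4 genes of this list with the smallest p were Cotl1, Abcc4, Dicer1 and Ephx1. Cotl1, a partner of 5-lipoxygenase that also binds actin, had a log2 fold change of -0.50 ± 0.14 (SE, limma adjusted p = 0.131). Abcc4, an exporter of eicosanoids, had 0.34 ± 0.11 (0.152), Dicer1, which also binds 5-lipoxygenase, 0.32 ± 0.12 (0.191) and the epoxide hydrolase gene Ephx1 0.31 ± 0.11 (0.193), each with its SE and limma adjusted p. Groups did not overlap for Cotl1, Abcc4 and Ephx1 and did for Dicer1, and none of the 4 passed the adjusted threshold.

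The pathway in which Alox12b and Aloxe3 act in skin, from long-chain ceramide synthesis to the cornified lipid envelope, was largely expressed. Of its 27 genes in the data, 25 were tested, and limma called 0 higher and 0 lower, with 3 higher and 3 lower at an unadjusted p under 0.05. These 6 of 25 stand beside 17.9% of all tested genes. The median log2 fold change was 0.02, and groups did not overlap in 10 of 25, beside 22.9% of all tested genes. Cers3, a ceramide synthase gene of this pathway, had 51.7, 58.9 and 68.7 CPM in untreated replicates 1, 2 and 3 and 78.1, 78.8 and 90.7 CPM in ibuprofen replicates 1, 2 and 3. Every ibuprofen library was above every untreated one, and the log2 fold change was 0.47 ± 0.13 (SE, limma adjusted p = 0.12). Elovl4, which elongates the fatty acids used by Cers3, had 7.3 ± 1.44 and 12.3 ± 3.65 CPM (SD, n = 3), a log2 fold change of 0.65 ± 0.22 (limma adjusted p = 0.176).

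Over the whole list the sign of the difference varied, with 13 of the 25 tested genes above 0 and 12 below. Elovl1, another elongase gene, picked after values were seen, had a log2 fold change of -0.27 ± 0.11 (SE, limma adjusted p = 0.231). Tgm1, the transglutaminase of the cornified envelope, had 373, 289 and 248 CPM in untreated replicates 1, 2 and 3 and 214, 185 and 217 CPM in ibuprofen replicates 1, 2 and 3. All ibuprofen libraries were below all untreated ones, with a log2 fold change of -0.54 ± 0.14 (SE, limma adjusted p = 0.112). Degs1, a ceramide desaturase gene, had -0.26 ± 0.10 (limma adjusted p = 0.229). Sdr9c7, the dehydrogenase that acts directly after eLOX3, reached at most 0.25 CPM and did not pass the filter, while Ephx3, an epoxide hydrolase of the same step, had 3.88 ± 0.642 and 5.6 ± 1.93 CPM (SD, n = 3; limma adjusted p = 0.418). Of the enzymes named here, Sdr9c7 was thus near 0 and Ephx3 low beside Cers3 and Tgm1.

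**Figure D4:**
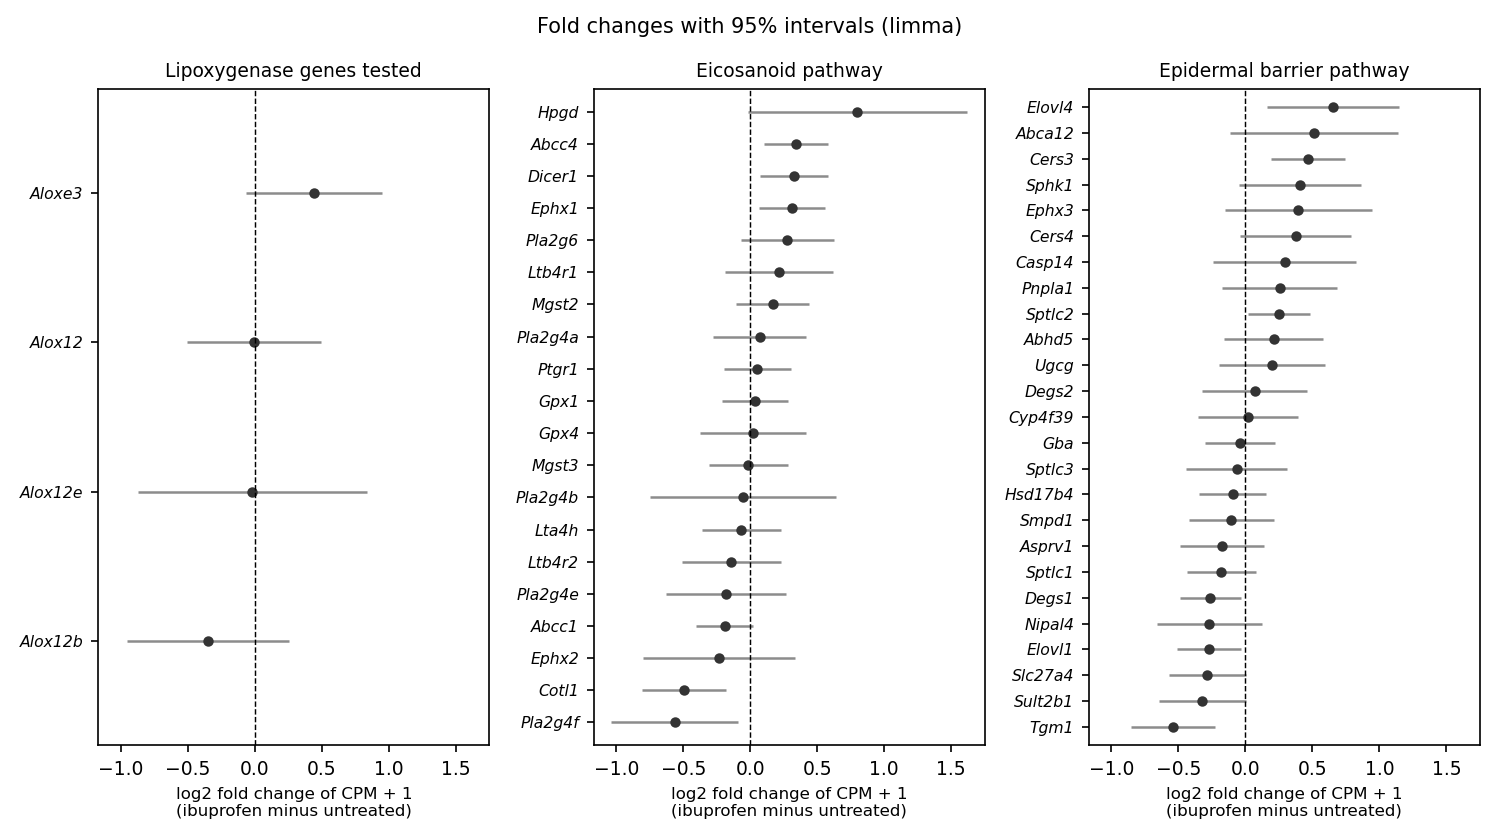
Log2 fold change of CPM + 1 (x axis, ibuprofen minus untreated) of the tested lipoxygenase, eicosanoid pathway and barrier pathway genes (y axis), with limma's 95% intervals, which are not adjusted for the number of genes. The intervals of the 4 lipoxygenase genes include 0, and the widest of them is that of Alox12e, from -0.87 to 0.83.

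Markers of late differentiation were set beside the lipoxygenase genes by Pearson's r over only 6 libraries, as a description. The values of r named were picked from those of the 4 tested markers with each of the 4 expressed lipoxygenase genes. Of 6 such markers 4 were tested and 0 called. Krt1, a suprabasal keratin of skin, had 3.8, 2.2 and 3.75 CPM in untreated replicates 1, 2 and 3 and 6.9, 8.34 and 16 CPM in ibuprofen replicates 1, 2 and 3 (limma adjusted p = 0.0674). Like Aloxe3 it was highest in ibuprofen replicate 3, and Pearson's r between them was 0.85 over the 6 libraries on the log2(CPM + 1) scale. For Krt10, the partner of Krt1, r was 0.07 with Aloxe3, 0.86 with Alox12 and 0.56 with Alox12e. For Lor, r was -0.09 with Aloxe3 and -0.39 with Alox12b. For Sprr3, r was 0.82 with Alox12b, 0.35 with Aloxe3 and -0.67 with Alox12e. Sprr3 had only 0.65 to 2.1 CPM, and Alox12b only 6 to 26 estimated reads per library. The list summed to 37.5 to 65.4 CPM untreated and 51.5 to 66.1 CPM with ibuprofen, and its part in the values of Aloxe3 was not tested.

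Among 10452 other tested genes with a mean of at least 5 CPM, those most like Aloxe3 over the 6 libraries were Fubp1 (Pearson's r = 0.997), Retsat (0.996) and Cstf3 (0.992), on the log2(CPM + 1) scale. Most like Alox12e were Gtf3c1 (0.991), Erh (0.97) and Slc35b2 (0.966). These were the highest of 10452 values over only 6 libraries, which share depth and composition, and are descriptions. Gtf3c1 ranged from 162 to 187 CPM where Alox12e ranged from 6.3 to 21.8 CPM, a much narrower span.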

How the data were processed

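EpCAM-high cells were profiled by RNA sequencing in 3 untreated and 3 ibuprofen libraries. Per the labels' protocols, sorted cells were lysed, and the library kit was Ovation Solo RNA-seq. The deposited values are CPM, per the file headers. Tools named without roles are Cell Ranger 3.1.0, edgeR, HTSeq and STAR 2.5.3a, with the builds GRCm38 and mm10, per the submitters' processing notes. The sources used here give no annotation, strand setting or filter.

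Values fell on steps left by scaling all libraries to 1 common total and rounding up. From these, reads were estimated, which returned at least 99.82% of values above 0. They describe depth only, and no count model was fitted. Intervals and the floor of 3 reads cover counting error only.

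Genes with at least 1 CPM in at least 3 of 6 libraries, 16684 in all, were fitted together with limma 3.58.1 in R 4.3.3 (mean-variance trend, values as log2(CPM + 1)), a script first tested on simulated data. Fold changes are on this scale, which understates changes of low genes. Benjamini-Hochberg adjustment ran over all tested genes. Alternatives changed the pseudocount, filter, scaling, weights, shrinkage, block, GC content and libraries used. Gene lengths, GC content and coding sequences came from GENCODE M21 (GRCm38), with 52489 of 52636 IDs found.

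Named genes are the 7 members, the 4 with the smallest p in each pathway list, enzymes directly before or after a lipoxygenase, abundant or defining cell markers, and the 3 genes most like Aloxe3 and Alox12e by Pearson's r. The members and lists were chosen with earlier results of these data known.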

Additional observations from a re-analysis of the deposited data

How the results depend on the processing

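None of the 4 tested lipoxygenase genes was called under any of the 17 alternatives run. With a filter of 5 CPM, Alox12 and Alox12b were not tested. Aloxe3 stayed above 0 and Alox12b below 0 in each one that tested them, with ranges of 0.20 to 0.63 and -0.68 to -0.10. Alox12b had its smallest limma adjusted p, 0.0587, with library weights. Alox12 and Alox12e, near 0, turned sign: Alox12e was 0.0243 with GC correction, alone or with the replicate block, and leaving out each library gave -0.45 to 0.27 for Alox12e and -0.12 to 0.20 for Alox12. The cause was not tested.

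The 87 calls over all genes became 52 with no filter, where more genes are tested, 2462 with library weights, 434 with a replicate block and 270 with a replicate block and GC correction. They were 4 and 5 without untreated replicates 1 and 2, 456 without untreated replicate 3, and 23 and 44 without ibuprofen replicates 1 and 3. The 0 calls of the eicosanoid list became 3 with library weights (Cotl1, Dicer1, Ephx1) and 0 to 1 on leaving out libraries, the 1 being Cotl1 without untreated replicate 3. The 0 of the barrier list became 6 with library weights, 1 with the replicate block, with or without GC correction (Tgm1), and 0 to 2 on leaving out libraries (Cers3 and Tgm1 without untreated replicate 3). Same-numbered libraries share only a number: their deviations from the group means correlated at 0.000173, 0.0798 and 0.153, and not every library correlated best with its own number.

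Tests on whole reads were not run, since reads were only estimated from values that had been scaled and rounded up. Alox5, Alox5ap and Alox15 entered a test only with no filter, where all 7 genes were tested and 0 called. At 0 to 3 reads per library, depth limits what that test could detect.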
